A study of Mus musculus with 30 samples.

Results

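The Serpina3 cluster genes are neighbouring serpin genes of mouse chromosome 12, and 7 of them, Serpina3n, Serpina3i, Serpina3m, Serpina3g, Serpina3f, Serpina3k and Serpina3c, were examined in hippocampus and brain of mice with and without mature B cells. They were chosen from measured values, for a strong rise in mice carrying the JHT allele, so their levels under that allele are given as a description without a test. Of these 7 genes, 6 were matched to 8 of the 55681 probes of the array, and the whole array gave 36717 genes and transcripts, 21368 of them with a symbol. Serpina3g was not matched to a probe and is named only.

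The study asked how B cells affect a mouse model of Alzheimer's disease (AD). RNA of mice aged 15 to 20 months, labelled as C57BL/6j and perfused with PBS, was hybridised to 30 single-colour Agilent arrays, 15 from the hippocampus and 15 from the remaining brain (called brain below). Hippocampus and brain arrays with the same number, genotype and sex in the labels were read as 1 mouse, which gives 15 mice, although the labels do not state it. WT mice (3 females) carried neither AD transgenes nor a deletion. The 3xTgAD mice (2 females, 3 males) carried the transgenes of this AD model, human APP and tau among them, a line of B6;129 origin per the methods. JHT mice (2 females) lacked the JH segments of the immunoglobulin heavy chain locus, so that B cells did not mature, and came from a B6.129P2 line. JHT_3xTgAD mice (2 females, 3 males), the B-cell-deficient AD mice of the study, carried both. The 7 JHT and JHT_3xTgAD mice are called JHT-carrying here, and the 8 WT and 3xTgAD mice JH-intact. There were no WT or JHT males. The deleted JH segments and the Serpina genes lie on the same chromosome, so the deletion and alleles of the donor strain linked to it cannot be told apart in these groups.

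Levels are normalised signals on the log2 scale, and a probe was called well above background where the scanner software marked it so on an array. The arrays differed in brightness by tissue: before normalisation the 75th percentile of the signal was 454 to 824 in hippocampus and 841 to 1636 in brain. The 14 astrocyte identity genes and the 10 neuron genes were well above background on all 30 arrays, whereas the summed B cell list (8 of 10 genes matched) ran from 6.73 to 7.81 in JHT-carrying and from 6.77 to 8.49 in JH-intact hippocampus, and from 6.72 to 7.87 and from 7.15 to 9.16 in brain. Of that list Jchain, the joining chain of secreted antibodies, named after its values were seen, was well above background on 4 of 7 JHT-carrying and 8 of 8 JH-intact brains, with means of 4.56 and 6.02 (adjusted p = 0.0512 in limma). Arrays of a tissue were read as different mice, and p-values measure the spread between these arrays. Fewer cells of a type and less RNA per cell cannot be told apart in these bulk samples.

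Serpins of clade A are mostly secreted proteins that trap serine proteases: the protease cuts an exposed loop of the serpin, which then changes shape and holds the enzyme. Human SERPINA3 encodes antichymotrypsin, an acute-phase protein found in amyloid plaques, and in the mouse it corresponds to a cluster of duplicated genes whose loops have diverged. Serpina3n is the member best known in brain, where astrocytes make it after injury and inflammation and where it is used as a marker of reactive astrocytes. Transcription of this family responds to acute-phase cytokines acting through STAT3 and to glucocorticoids. In the liver several members are made at high levels.

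Promoter sequence is shown for 3 members, since Serpina3n and Serpina3i moved together under the JHT allele while Serpina3c, whose promoter is nearest in sequence to that of Serpina3n, did not reach a level above background on most arrays. The windows compared and searched were the 250 bases before the start given in the RefSeq promoter table (GRCm38.p6). That start lay 62 bases inside the annotated gene of Serpina3n, 57 inside that of Serpina3c and 77 inside that of Serpina3i. Only the bases outside the annotated gene are printed, so each stretch ends before the table's start, and capitals mark matches to the searched motifs. Serpina3n is chr12:104406458-104406645 (plus strand), Serpina3c chr12:104153930-104154122 (minus strand) and Serpina3i chr12:104262872-104263044 (plus strand).
Serpina3n: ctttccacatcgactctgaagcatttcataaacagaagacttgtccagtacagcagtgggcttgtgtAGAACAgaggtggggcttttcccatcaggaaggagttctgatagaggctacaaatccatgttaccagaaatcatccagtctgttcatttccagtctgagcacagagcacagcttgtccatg
Serpina3c: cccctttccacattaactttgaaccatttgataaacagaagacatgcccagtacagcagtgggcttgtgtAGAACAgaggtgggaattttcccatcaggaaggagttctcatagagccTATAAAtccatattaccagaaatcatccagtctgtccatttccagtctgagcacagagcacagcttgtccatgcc
Serpina3i: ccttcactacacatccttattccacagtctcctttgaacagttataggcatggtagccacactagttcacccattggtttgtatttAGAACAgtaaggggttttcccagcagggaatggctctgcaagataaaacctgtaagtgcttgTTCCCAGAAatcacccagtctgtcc
Over the whole windows of 250 bases, the bases inside the genes included, Serpina3n and Serpina3c were identical at 229 bases (91.6%), whereas Serpina3n and Serpina3i shared 68.4% and Serpina3i and the first of the 2 Serpina3f windows 73.6%.

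In these windows both strands were searched for 4 motifs: TTCNNNGAA (the core letters of STAT sites), TTGCNNAA (C/EBP), AGAACA (glucocorticoid receptor) and TATAAA (the TATA box). The AGAACA letters, held by 16.1% of all 32851 promoters searched, began 183 bases before the table's start for Serpina3n, 180 before that of Serpina3c and 164 before that of Serpina3i, and were also in the second Serpina3f window (94). The TTCNNNGAA letters, held by 7.02% of all promoters, were in the windows of Serpina3i (102 bases before the same start), Serpina3f (121 in the first and 210 in the second of 2 overlapping windows) and Serpina3g (33), and not in those of Serpina3n or Serpina3c. Each Serpina3f window also held TTGCNNAA (9.56% of all promoters) at 2 places, and TATAAA (12.4%) was found in the window of Serpina3c and in the first of Serpina3f. No matches overlapped in the windows of members. Serpina3k and Serpina3m are named only. These matches describe letters, and binding was not measured.

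Serpina3n, the inhibitor of serine proteases made by reactive astrocytes, was high in every JHT-carrying mouse. In hippocampus its log2 signal was 10.32, 9.76 and 10.45 in WT females, 10.36 and 10.10 in 3xTgAD females, and 10.56, 10.44 and 10.30 in 3xTgAD males. It was 13.04 and 13.32 in JHT females, 12.59 and 13.62 in JHT_3xTgAD females, and 13.12, 13.19 and 12.37 in JHT_3xTgAD males. Every JHT-carrying hippocampus thus lay above every JH-intact one, with medians of 13.12 and 10.34 and with no overlap in mice with or without the AD transgenes. The mean JHT-carrying minus JH-intact difference was 2.78 (6.86-fold), made up of 3.00 for JHT against WT females, 2.87 for JHT_3xTgAD against 3xTgAD females and 2.46 for the same genotypes in males.

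In brain, Serpina3n was 9.25, 8.39 and 8.43 in WT females, 8.40 and 8.49 in 3xTgAD females, and 8.42, 8.48 and 8.42 in 3xTgAD males. The JHT-carrying brains had 11.48 and 11.75 (JHT females), 10.55 and 11.09 (JHT_3xTgAD females), and 12.44, 11.87 and 11.05 (JHT_3xTgAD males). All but 1 of the JH-intact brains lay within a narrow band, the exception being the WT female at 9.25, and the JHT-carrying brains were spread more widely above them. The mean difference was 2.88 (7.36-fold), with 2.93, 2.37 and 3.34 in the same order of strata. The probe was well above background on all 30 arrays.

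Serpina3i, a paralogue upstream of Serpina3n whose protein is little studied, showed the same split from a much dimmer base. In hippocampus its brighter probe gave 3.74, 3.05 and 2.66 in WT females, 4.31 and 4.76 in 3xTgAD females, and 4.43, 5.27 and 4.15 in 3xTgAD males. The JHT-carrying hippocampi gave 9.09 and 9.38 (JHT females), 8.27 and 9.75 (JHT_3xTgAD females), and 9.45, 9.38 and 8.36 (JHT_3xTgAD males). The probe was thus well above background on 7 of 7 JHT-carrying arrays and on 3 of 8 JH-intact arrays, none of them WT. The mean difference was 5.004 on the log2 scale, taken against signals of which most were below background, with 6.09 for JHT against WT females, 4.48 for the AD females and 4.45 for the AD males, and against WT, dim on every array, the fold was at least 26.7. Where a group was dim on every array, such a lower bound sets the bright group's mean against the lowest signal still well above background.

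In brain, Serpina3i was 3.90, 2.22 and 2.24 in WT females, 3.27 and 4.10 in 3xTgAD females, and 3.18, 3.86 and 2.22 in 3xTgAD males. It was 7.65 and 7.93 in JHT females, 6.46 and 7.01 in JHT_3xTgAD females, and 8.26, 7.996 and 6.68 in JHT_3xTgAD males. Since the probe was well above background on 7 of 7 JHT-carrying and 0 of 8 JH-intact brains, the difference is a bound: at least 8.59-fold over all arrays, and at least 10.9-fold, 6.19-fold and 9.13-fold in the 3 strata. The measured difference was 4.21 on the log2 scale.

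**Figure D1:**
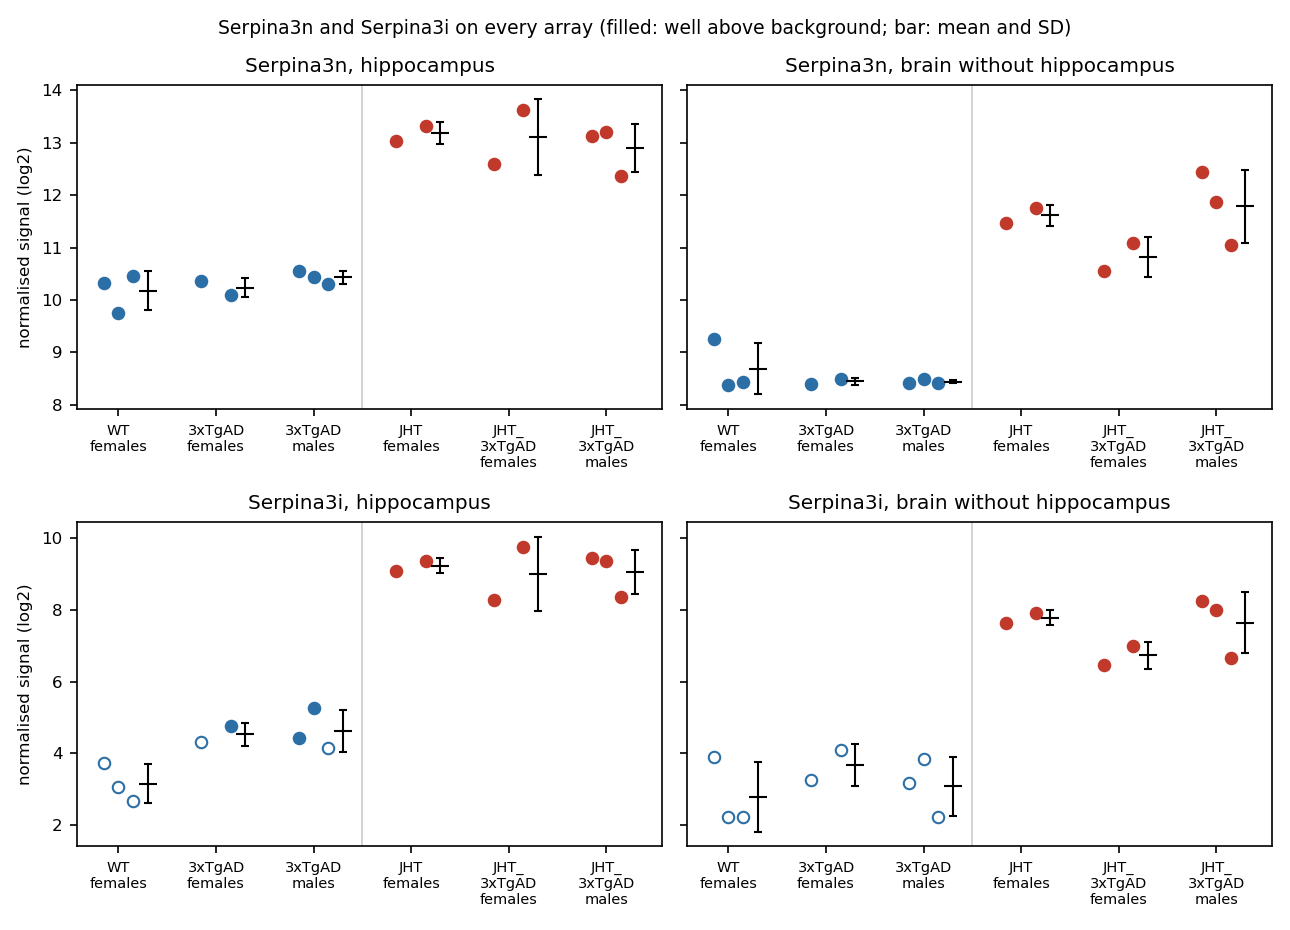
Normalised log2 signal (y axis) of Serpina3n (top) and Serpina3i (bottom) on each of the 15 hippocampus (left) and 15 brain (right) arrays, by genotype and sex (x axis). Filled points are well above background, and bars give the group mean and SD. The 7 JHT-carrying arrays lie above the 8 JH-intact arrays in all 4 panels.

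Serpina3i and Serpina3n were the 2 members whose JHT-carrying and JH-intact arrays did not overlap, and this held in both tissues. Over all genes with a value on each array, 0.107% in hippocampus and 0.0654% in brain had all 7 JHT-carrying arrays above all 8 JH-intact arrays. Because this contrast chose the members, nothing is read from the count. Both differences were also present within single slides, each of which held up to 8 arrays. For Serpina3n the within-slide values were 3.00, 2.87 and 2.69 in hippocampus and 2.93, 2.37 and 3.43 in brain, in the same order of strata, the last with 1 JHT-carrying male against 3 JH-intact males.

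The 2 probes of Serpina3i disagreed. The second, dimmer probe differed by 0.67 in hippocampus and 0.19 in brain between JHT-carrying and JH-intact mice, and its arrays overlapped, spanning 3.98 to 6.22 against 2.82 to 4.77 in hippocampus. It was well above background on 3 of 7 and 0 of 8 hippocampus arrays, and on 2 of 7 and 1 of 8 brain arrays. The mean over both probes differed by 2.84 in hippocampus and 2.20 in brain. Paralogues of this cluster are similar in sequence, and whether a probe also binds RNA of another member was not tested.

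Serpina3n and Serpina3i were the members with a strong rise, and the other 4 matched members did not share it. Serpina3f, a close paralogue of Serpina3i, was above background in every hippocampus at its brighter probe, with a median of 6.42 (6.03 to 7.94) in JHT-carrying and 5.99 (5.41 to 6.63) in JH-intact mice. In brain its medians were 5.31 and 5.35. The differences were 0.58 and 0.10, the arrays overlapped in both tissues, and the second Serpina3f probe gave 1.05 and 0.03. Its 3 hippocampus strata ran from -0.18 in AD females to 1.40 in AD males, so the sign was not the same in each.

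Serpina3c was well above background on 3 of 15 hippocampus and 1 of 15 brain arrays. Its medians were 4.21 (JHT-carrying) and 3.81 (JH-intact) in hippocampus and 3.09 and 2.29 in brain, and the arrays overlapped. Serpina3m, known mainly from liver, was well above background on 1 of 30 arrays. In hippocampus its JHT-carrying minus JH-intact difference was 0.08, while in brain its signal ran from 3.04 to 4.66 in JHT-carrying and from 2.20 to 3.05 in JH-intact mice, a difference of 1.35 that lay almost wholly below background. Serpina3k, a liver inhibitor of tissue kallikrein, did not rise well above background on a single array and lay between 2.33 and 2.49 throughout.

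**Figure D2:**
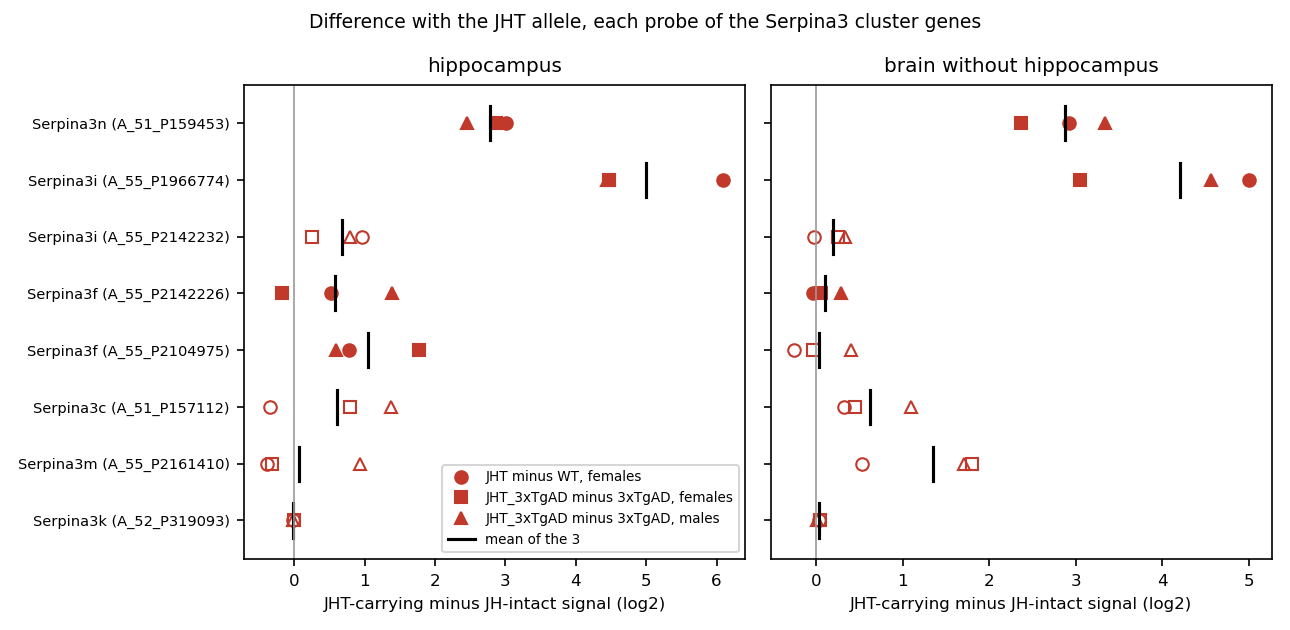
JHT-carrying minus JH-intact log2 signal (x axis) for each probe of the 6 matched members (y axis), in hippocampus (left) and brain (right). Symbols give the 3 strata and the vertical stroke their mean; open symbols mark probes well above background on fewer than 4 of the 7 JHT-carrying arrays. Serpina3n and the brighter Serpina3i probe stand at 2.78 and 5.004 in hippocampus and at 2.88 and 4.21 in brain, apart from the remaining probes, the Serpina3i values being set against JH-intact arrays that were mostly below background.

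Genes next to the members were then examined in annotated order. Serpina3b and Serpina3h, paralogues inside or beside the cluster, were well above background on all 30 arrays and had medians of 6.95 and 6.93 in JHT-carrying and 7.15 and 7.06 in JH-intact hippocampus. Serpina3a was well above background on 1 of 30 arrays and Serpina3j on none. None of these 4 paralogues was called in limma under the JHT allele in either tissue (0 of 4 at an unadjusted p under 0.05 also).

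Of the 40 genes with a probe nearest to the cluster, 20 on each side, 4 were called higher in brain, against 1.62% of all genes called in that comparison. All 4 are antitrypsin paralogues. Serpina1a rose by 2.82 (SE 0.13, adjusted p = 2.11e-06 in limma), Serpina1c by 2.78, Serpina1d by 3.24 and Serpina1e by 2.66, the last with an adjusted p of 3.62e-06. The Serpina1d probe was well above background on 1 of 8 JH-intact brains, so its difference is measured against a dim group. Second probes gave smaller values: 1.36 in brain and 1.08 in hippocampus for Serpina1e, well above background on all 30 arrays, and in brain bounds of at least 2.34-fold for Serpina1a and at least 1.53-fold for Serpina1d. In hippocampus Serpina1a, Serpina1c and Serpina1e differed by 2.64, 2.60 and 2.44 and Serpina1d, dim on every JH-intact array, was at least 1.71-fold higher, with adjusted p between 0.0525 and 0.0824, and 0 of 40 were called (4 at an unadjusted p under 0.05), against 0.613% of all genes. That count was 6 with the slide as a block, 4 with both tissues in the same fit and 4 without JHT female replicate 14. Calls over all 36717 genes in hippocampus varied too, from 161 to 3523 over the alternatives and from 141 to 448 with each mouse left out. None of the 20 genes beyond Serpina3n was called in either tissue, and 10 of the 40 had an unadjusted p under 0.05 in brain, as did 4755 of all 36717 genes. Antitrypsin paralogues share sequence, so their probes are uncertain too.

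**Figure D3:**
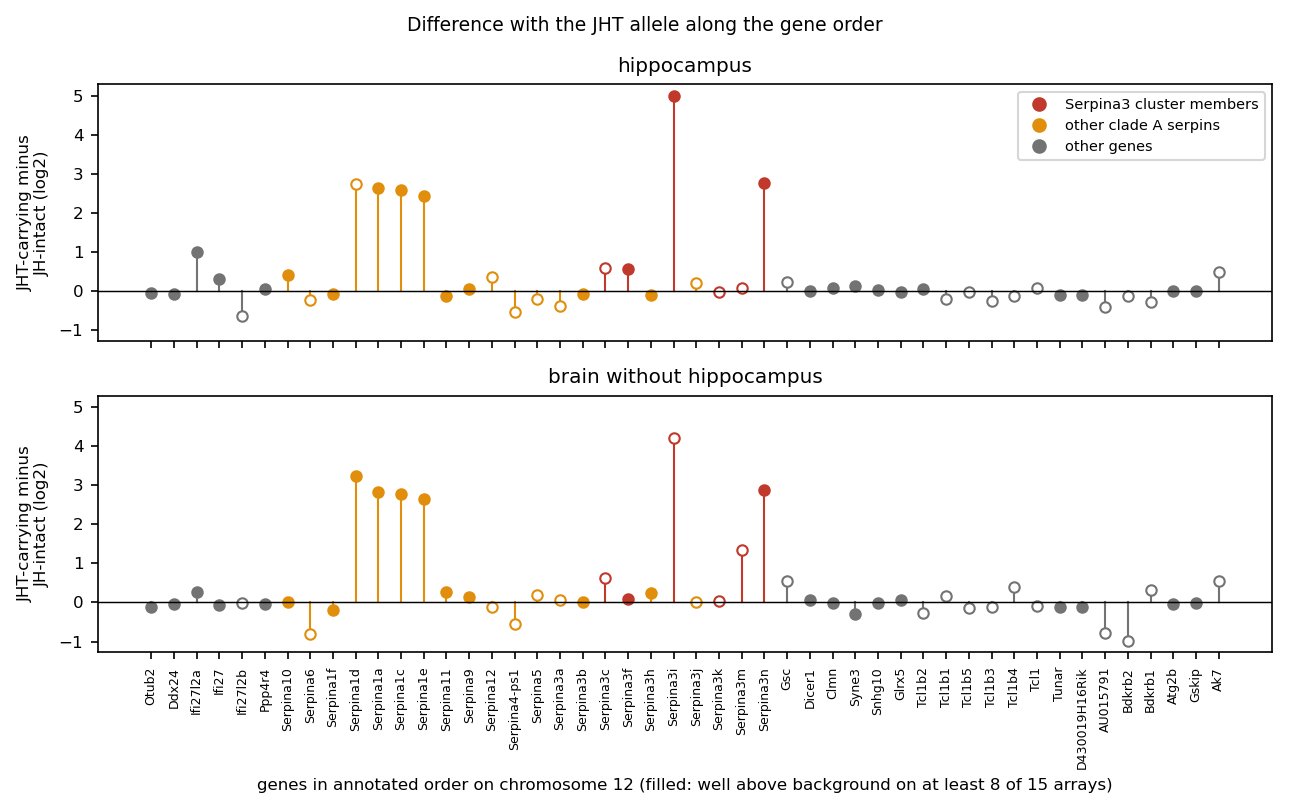
JHT-carrying minus JH-intact log2 signal (y axis) of the members, the paralogues between them and 20 genes on either side, in annotated order on chromosome 12 (x axis, not to distance), in hippocampus (top) and brain (bottom). Filled points are well above background on at least 8 of 15 arrays. Of the genes between Serpina3i and Serpina3n, Serpina3j and Serpina3k lie within 0.21 of 0 in both tissues and Serpina3m, dim on nearly every array, at 0.08 in hippocampus and 1.35 in brain, and the antitrypsin genes form a second raised run on one side.

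The AD transgenes were tested in females, first with JH intact (3xTgAD against WT) and then with JH deleted (JHT_3xTgAD against JHT), in limma fits across all 36717 genes. The 3xTgAD and JHT_3xTgAD females lay on other slides than the WT and JHT females in both tissues, so slide and transgenes cannot be told apart within the females. No member passed in hippocampus with JH intact (0 of 6, background 0.746%), and 2 had an unadjusted p under 0.05, as did 4400 of all 36717 genes. Serpina3i was 1.38 higher in 3xTgAD than in WT females (SE 0.51, adjusted p = 0.315), from signals largely below background. Serpina3c was 1.08 lower on the log2 scale at an adjusted p of 0.393, and Serpina3n differed by 0.06 (SE 0.33).

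With JH deleted, 0 of 6 passed in hippocampus (background 0.229%; 0 at an unadjusted p under 0.05), and Serpina3n differed by -0.08 (SE 0.36). In brain with JH intact, 0 of 6 passed (background 1.15%; 0 unadjusted), and Serpina3n differed by -0.24 (SE 0.37). In brain with JH deleted, 0 of 6 passed (background 0.667%), and the 1 member with an unadjusted p under 0.05 was Serpina3m, at 1.13 and an adjusted p of 0.217, below background on all 4 arrays. Of all 36717 genes, 3904 had an unadjusted p under 0.05 there. JHT_3xTgAD female brains had less Serpina3n signal than JHT female brains, 10.55 and 11.09 against 11.48 and 11.75, but the difference of -0.80 (SE 0.40) had an adjusted p of 0.512 in limma.

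Whether the transgene effect itself changed with the deletion was tested as a difference of differences. In hippocampus 0 of 6 members passed (background 0.131%; 0 at an unadjusted p under 0.05), and in brain 0 of 6 (background 0.379%; 1 unadjusted, Serpina3m, beside 3126 of all 36717 genes). The largest estimates were for Serpina3i, at -1.61 in hippocampus (adjusted p = 0.397) and -1.96 in brain (SE 0.96, adjusted p = 0.631), which mix dim and bright arrays. For Serpina3n the estimates were -0.13 (SE 0.49) and -0.56 (SE 0.54). With 2 or 3 mice a group, differences as large as these errors, and larger ones, could be missed.

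Sex was tested within the AD genotypes. In hippocampus 0 of 6 members passed (background 0.0381%; 0 at an unadjusted p under 0.05), and Serpina3n differed between males and females by -0.01 (SE 0.23). In brain 0 of 6 passed (background 0.139%; 1 unadjusted, Serpina3c at 1.19 with an adjusted p of 0.345, beside 3443 of all 36717 genes unadjusted). Serpina3n was 0.48 higher in male brains (SE 0.26, adjusted p = 0.57).

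**Figure D4:**
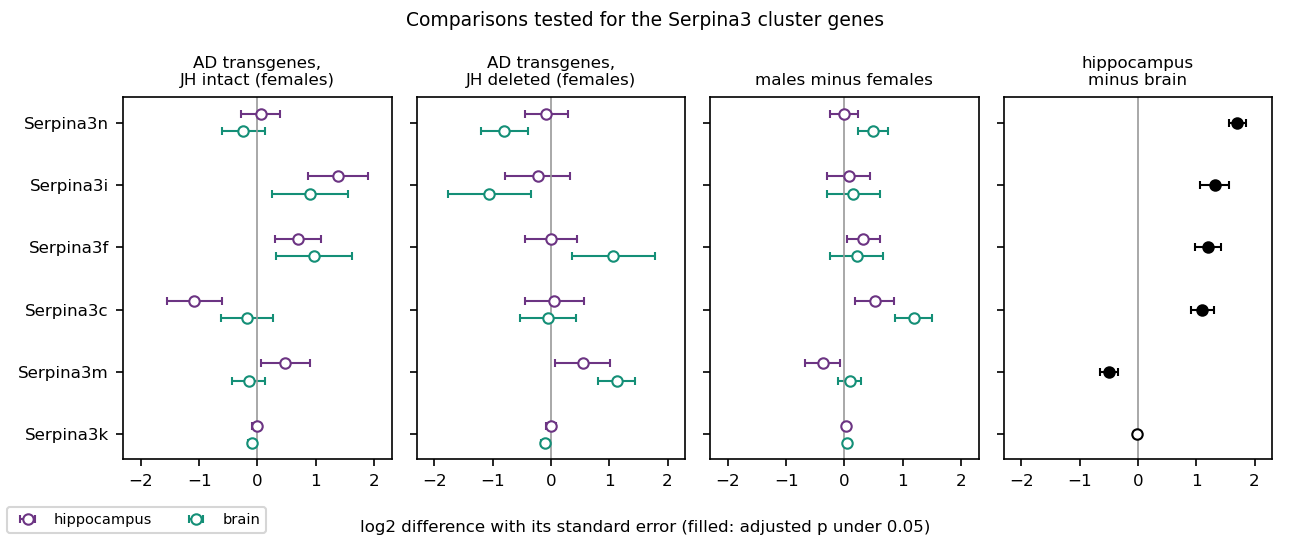
Tested log2 differences (x axis) with their SE for each matched member (y axis): the AD transgenes with JH intact and with JH deleted, males minus females, and hippocampus minus brain. Filled points passed at an adjusted p of 0.05 in limma. None of the transgene and sex points is filled, while 5 of 6 are filled for the tissue comparison.

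The members were also compared between tissues. Hippocampus exceeded brain for Serpina3n by 1.70 (SE 0.15, 3.26-fold, adjusted p = 4.35e-09), and the 2 tissues did not overlap among JH-intact mice, at 9.76 to 10.56 in hippocampus and 8.39 to 9.25 in brain. Among JHT-carrying mice they did overlap, at 12.37 to 13.62 in hippocampus and 10.55 to 12.44 in brain. Serpina3i was 1.31 higher in hippocampus (adjusted p = 0.000119), Serpina3f 1.20 (adjusted p = 0.000131) and Serpina3c 1.11 (adjusted p = 4.85e-05), whereas Serpina3m was lower by 0.50 on the log2 scale (adjusted p = 0.00926) and Serpina3k differed by -0.02. Serpina3c was well above background on 4 of 30 arrays and Serpina3m on 1, so their differences are mostly between signals below background. For Serpina3i the probe was well above background on 3 of 8 JH-intact hippocampi and 0 of 8 JH-intact brains, so its difference is measured mainly among the JHT-carrying arrays. With 5 of 6 members called against 51.1% of all genes, the count stands near what this comparison gave in general.

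Normalising within each tissue moved the median of all genes to -0.77 in this comparison, from -0.0039 as reported. Under it Serpina3i (0.53, adjusted p = 0.0517) and Serpina3f (0.43, adjusted p = 0.0963) were no longer called and Serpina3k, dim throughout, was called lower (-0.61). Serpina3i and Serpina3f moved by about as much as the median of all genes. Serpina3n stayed called but fell from 1.70 to 0.67 (adjusted p = 0.000305 in limma), so the size of its tissue difference depends on the normalisation. Scaling to the 75th percentile moved that median to 0.28 and gave Serpina3m 0.0331 (adjusted p = 0.836), no longer called, and Serpina3k 0.44 (adjusted p = 0.00135), called higher. Normexp background correction also ended the Serpina3m call (-0.0454, adjusted p = 0.336), so for these dim genes neither call nor direction between tissues held over the scalings. Hippocampus and brain were also on different slides except for 1 brain array, so slide and tissue can hardly be told apart. The tissue difference was then compared between JHT-carrying and JH-intact mice, and 0 of 6 members passed (background 0.0654%; 1 at an unadjusted p under 0.05, beside 1766 of all 36717 genes). For Serpina3n this difference was -0.10 (SE 0.29) and for Serpina3i 0.80 (SE 0.49). The 1 was Serpina3m, at -1.27 with an adjusted p of 0.251, and it was called without JHT_3xTgAD male replicate 0 (-1.46, adjusted p = 0.0278).

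Genes that are known to move with Serpina3n in reactive astrocytes were tested under the JHT allele, from a list of 39 genes without the members. In hippocampus 4 of 38 matched genes were higher (background 0.613% for calls in either direction) and 16 had an unadjusted p under 0.05, as did 3274 of all 36717 genes. They were Lcn2, the iron-siderophore-binding lipocalin (2.49, 5.62-fold, adjusted p = 0.0393), Cp, the copper-carrying ferroxidase ceruloplasmin (1.32, adjusted p = 0.0389), Fbln5, an elastic fibre protein, and Tm4sf1, a membrane protein that is also high in endothelium. The list's median difference was 0.51 in hippocampus, beside -0.0063 over all genes. Meningeal and fibroblast genes had a median of 0.84 there (0 of 10 called, 7 at an unadjusted p under 0.05), and endothelial genes one of 0.42 (1 of 10 called, 6 unadjusted). The endothelial gene called was Cldn5, a tight junction claudin, at 0.85 (adjusted p = 0.0214). The reactive count was 0 to 5 when each mouse was left out in turn, being 0 without any 1 of 9 WT, 3xTgAD or JHT_3xTgAD mice, and it was 16 with the slide as a block. Beside it, hippocampus calls over all 36717 genes ran from 141 to 448 with each mouse left out and from 161 to 3523 over the alternatives.

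In brain 0 of the same 38 genes were called (background 1.62%; 12 at an unadjusted p under 0.05, as for 4755 of all 36717 genes), 6 with the slide as a block and 4 without JHT_3xTgAD male replicate 9, and the median was 0.19 beside -0.0032. Brain calls over all genes ran from 361 to 1830 over the alternatives and from 355 to 920 with each mouse left out. The meningeal median was 0.15 (0 of 10 called, 2 unadjusted) and the endothelial median 0.31 (6 of 10 unadjusted, Cldn5 called at 0.72, adjusted p = 0.03997). Lcn2 differed there by 1.92 with an adjusted p of 0.153. Gfap, the intermediate filament by which reactive astrocytes are most often recognised, differed by 0.09 in hippocampus and 0.19 in brain, Vim, its partner filament, by 0.55 and 0.31, and C4b, a complement gene that rises with age and plaques, by 0.03 and 0.06. None of these was called. Gfap spanned 12.5 to 14.2 in JHT-carrying and 13.1 to 13.7 in JH-intact hippocampus, so its sets overlapped fully, unlike those of Serpina3n.

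The summed astrocyte identity list ran from 18.6 to 18.9 in JHT-carrying and from 18.7 to 18.9 in JH-intact hippocampus. The summed reactive list ran from 16.4 to 17.2 and from 16.0 to 16.4, and in brain from 16.3 to 17.2 and from 16.1 to 16.5. Meningeal genes summed to 14.5 to 15.7 in JHT-carrying and 13.6 to 15.3 in JH-intact hippocampus, and endothelial genes to 15.4 to 15.9 and 14.9 to 15.8. All 10 genes of either list were well above background on every array. The part of these cell types, and of those that follow, in the Serpina3n, Serpina3i and reactive list levels was not tested. Of 11 hepatocyte genes, 4 were well above background on every hippocampus and 3 on every brain array, among them Trf and Ttr, which oligodendrocytes and choroid plexus also make. Alb, the defining transcript of hepatocytes, was so on 0 of 30 arrays, and the list had medians of 0.07 and -0.04, with none called. Blood genes had a median difference of 0.46 in hippocampus (3 of 8 at an unadjusted p under 0.05) and 0.56 in brain (2 of 8), and choroid plexus genes 1.31 and -0.06 (0 of 8 in either), with none called. Blood genes summed to 15.7 to 17.2 in JHT-carrying and 15.6 to 16.9 in JH-intact hippocampus and to 16.1 to 17.6 and 16.03 to 17.7 in brain, and choroid plexus genes varied from 10.99 to 18.5 among hippocampi of both kinds. Such sums add the signals before the log2, so a list's brightest genes weigh most and changes of dimmer ones can be hidden.

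The pathways that act on this family were then counted. Of 24 genes of interleukin 6 and oncostatin M signalling and the acute phase, 2 were higher in hippocampus (Cp and Lcn2, which are also on the astrocyte list) and 0 in brain (8 and 7 at an unadjusted p under 0.05), where 0.613% and 1.62% of all genes were called. Stat3, the transcription factor of that pathway, differed by 0.16 and -0.08 and was not called. Of 13 glucocorticoid response genes, 0 were called in hippocampus (6 unadjusted), and 2 were lower in brain (7 unadjusted), Pdk4, a mitochondrial kinase (-0.50, adjusted p = 0.0462), and Zbtb16, a zinc finger repressor (-0.40, adjusted p = 0.0434). Of 15 matched serine proteases, the possible targets of these serpins, 0 were called in either tissue (5 in hippocampus and 1 in brain unadjusted).

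Likeness to Serpina3n was ranked over 23318 genes above background on at least 15 arrays, by the lower of the Pearson correlations within the 2 tissues, each over 15 arrays that share their genotype groups. Serpina3i had a correlation of 0.97 in both tissues and, on deviations from the group means, of 0.64 in hippocampus and 0.81 in brain. Serpina3m, dim on nearly every array, correlated at 0.80 in brain and 0.12 in hippocampus, and on the deviations at 0.12 and -0.025, and the remaining members at most at 0.56. The highest gene outside the cluster was Krtap11-1, a hair keratin-associated protein gene of chromosome 16, with 0.99 in both tissues and 0.95 and 0.93 on the deviations.

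Krtap11-1 was well above background on all 30 arrays, at 9.00 to 10.1 in JHT-carrying and 6.83 to 7.39 in JH-intact hippocampus and at 7.27 to 8.88 and 5.03 to 6.19 in brain. Its sets did not overlap in either tissue. After it came the transcript NM_008710 (0.94), Lilra6, a leukocyte receptor (0.84), Casp4, an inflammatory caspase (0.82), Serpina1a (0.82), the transcript XR_871435 (0.82), Retnlg, a neutrophil cytokine (0.81), and Sirpb1b, a myeloid receptor (0.80). These values include the split between genotypes. On the deviations from group means NM_008710 had 0.56 in hippocampus and -0.46 in brain, Serpina1a 0.26 and 0.60, XR_871435 0.26 and 0.83, and Lilra6 0.77 and 0.81, while Casp4, Retnlg and Sirpb1b had 0.48 to 0.49 in hippocampus and 0.65 to 0.77 in brain. Whether the Krtap11-1 probe reads RNA of its named gene was not tested.

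**Figure D5:**
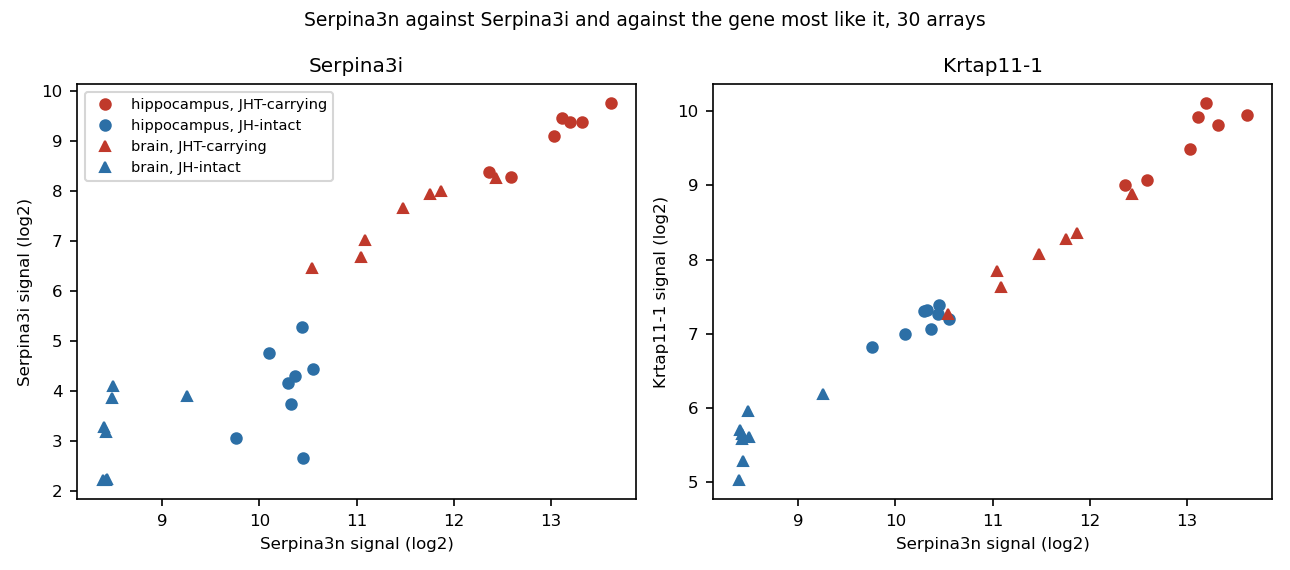
Serpina3n log2 signal (x axis) against the log2 signal of Serpina3i (left) and Krtap11-1 (right) on the 30 arrays, with JHT-carrying (red) or JH-intact (blue) by colour and hippocampus (circles) or brain (triangles) by symbol. Krtap11-1 follows Serpina3n along a single line through both tissues, whereas Serpina3i falls away from it among the dim JH-intact arrays.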

How the data were processed

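Total RNA of hippocampus and of the remaining brain was labelled with Cy3 and hybridised, 1 mouse and tissue per array, and the authors deposited scanner intensities from Agilent Feature Extraction 12.0.3.1, with background subtracted but not normalised between arrays. The deposited value table holds a score, found from the values to be the Z score of the log10 signal within each array, which was used as an alternative.

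Control and outlier-flagged spots were left out, spots of a probe averaged, and log2 processed signals quantile-normalised over 30 arrays. Each gene took its probe with the highest mean, as in the authors' methods. Array accessions were matched to symbols in the RefSeq table (GRCm38.p6). Groups of genotype and sex were fitted with limma 3.58.1 in R 4.3.3, per tissue or over both, with Benjamini-Hochberg adjustment over 36717 genes and a threshold of 0.05, in fits tested on simulated data. Python 3.11.15 and pandas 2.3.3 were used for reading, motifs and figures. The number of arrays limits the precision.

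The members, lists and tests were chosen with earlier results of these data known, and the motifs after the promoters were seen. Genes named were all members with each probe, other Serpina3 and clade A genes, at most 4 called genes a list and at most 8 called neighbours by size of change, Gfap, Vim, Stat3, Lcn2, C4b and Alb throughout, and the 8 genes most like Serpina3n. Hippocampus and brain arrays carry the same numbers with the same genotype and sex in the labels. Equal numbers were read as the same mouse, which the labels do not state, and the mouse was a block only in an alternative. Over 23320 genes the median correlation of paired deviations was 0.08 (-0.09 to 0.23, above 0.1 in 6 of 15 pairs), against -0.06 between different mice of a group. Deviations from a group mean cancel within the group, so the second value is tied to the first and is no separate baseline. Alternatives were scaling to the 75th percentile, normalising within tissue, the deposited scores, normexp background correction, no dim genes, the mean of all probes, slide or mouse as a block, other sets of arrays in the fit, the methods' unpaired test and leaving out each mouse. Part of the genotype of the AD line is not reported here.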

Additional observations from a re-analysis of the deposited data

How the results depend on the processing

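The JHT-carrying and JH-intact arrays of Serpina3n and Serpina3i did not overlap under any of the 6 alternatives that could be compared, and the Serpina3n difference stayed between 2.72 and 2.85 in hippocampus and between 2.65 and 2.91 in brain. That of Serpina3i ran from 2.84 to 5.13 and from 1.73 to 4.38, lowest with the mean of its probes in hippocampus and with normexp in brain. Counts of members or listed genes kept within 1.5 times of the reported count in 325 cases, were higher in 23 and lower in 15. Counts of 0 that stayed 0 are among the 325. The reactive astrocyte count in hippocampus kept so in 5 of 8 alternatives and in 2 of 15 runs without 1 mouse.

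Reactive astrocyte genes called in hippocampus were 2 rather than 4 with scaling to the 75th percentile, 16 with the slide as a fixed block and 8 with all 30 arrays in the same fit, and in brain 1 rather than 0 with normexp, 1 without dim genes and 6 with the slide. Neighbours called in hippocampus were 1 with normalising within tissue, 2 without dim genes, 6 with the slide and 4 with all 30 arrays in the same fit, against 0. Members called between tissues were 3 of the 3 left without dim genes, the lower count coming from fewer genes tested (24117 kept). Calls over all genes between tissues ran from 17556 to 29906 over the alternatives. Serpina3i was kept through its JHT-carrying hippocampi, well above background on 7 of 7 against 3 of 8 JH-intact, so nothing is read from this count. The methods' unpaired test, at 0.05 and unadjusted, called 1 member for the transgenes with JH intact in hippocampus (Serpina3f), 3 with JH deleted in brain (Serpina3m, Serpina3f, Serpina3k) and 1 for sex in brain (Serpina3c), and 0 after Benjamini-Hochberg adjustment. Calls over all 36717 genes in these comparisons reached 4946, 5848 and 2008 over the alternatives. Serpina3m and Serpina3k were below background on every array of the comparison with JH deleted in brain. Leaving out each mouse gave 0 to 5 reactive astrocyte genes in hippocampus and 0 to 4 in brain, 0 to 4 neighbours in hippocampus, and 0 to 1 members for the tissue difference between JHT-carrying and JH-intact mice. Over all genes, JHT calls ran from 161 to 3523 in hippocampus and from 361 to 1830 in brain over the alternatives. The causes were not tested.

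Among the signs that turned, only that of Serpina3m between tissues belonged to a difference called as reported. With scaling to the 75th percentile, which moved the median of all genes between tissues to 0.28, Serpina3m (0.0331) and Serpina3k (0.44, called higher, while normalising within tissue called it lower) turned between tissues and Serpina3n for sex in hippocampus (0.11). Serpina3n for sex also turned with the deposited scores (0.0164), normexp (0.0289) and the slide (0.11), and for the transgenes with JH intact in hippocampus with normexp (-0.0075) and the slide (-0.28). Normexp turned Serpina3i for sex in hippocampus (-0.0309), Serpina3k between tissues (0.0011) and the Serpina3n tissue difference by JHT allele (0.0682). The mean of the probes turned Serpina3i with JH deleted (0.23 in hippocampus, 0.0428 in brain), and the slide turned it with JH intact in brain (-0.42). Leaving out each mouse gave Serpina3n a range of -0.15 to 0.19 with JH intact and -0.59 to 0.44 with JH deleted in hippocampus, -0.64 to 0.38 for the difference of these, -0.40 to 0.037 with JH intact in brain and -0.26 to 0.25 for sex in hippocampus. It gave Serpina3i -0.97 to 0.51 with JH deleted and -0.30 to 0.44 for sex in hippocampus, and -0.0529 to 0.40 for sex in brain.

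With the mouse as a replicate block, random or fixed, 5 of 6 members were again called between tissues, Serpina3n at 1.70, and 0 for the difference by JHT allele, so it changed no call of a member. Dim signal limits Serpina3c, Serpina3k, Serpina3m and the JH-intact side of Serpina3i. The array covers no strand or sequence check of the probes, and the transgene contrasts in females lay between slides, so the estimates with the slide as a block rest on the JHT_3xTgAD males, which span the slides.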
